A study of Homo sapiens with 12 samples.

Results

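Cells of the established human embryonic kidney line HEK293T were cross-linked with formaldehyde and profiled by protein interaction profile sequencing, and the sites described here are those that ssRNase left protected on both strands of the same stretch of genome. They were picked from the merged ssRNase list as sites that overlap an opposite-strand site of that list by at least 1 nt, outside the mitochondrial genome and the contig Un_gl000220. There were 18138 such facing sites among 280627, or 6.46%, and they formed 10216 opposite-strand pairs. The remaining 262489 sites are called other sites below.

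The 12 libraries made up 4 groups of 3 replicates: ssRNase footprint, dsRNase footprint, ssRNase digestion control and dsRNase digestion control. All cells were fixed with 1% formaldehyde for 10 minutes before lysis. All 12 libraries also shared 125 mM glycine and a reversal of cross-links for 2 hours at 65 °C. Footprint lysates met RNase ONE (ssRNase, which cuts unpaired RNA) or RNase V1 (dsRNase, which cuts paired RNA) while protein was still bound. Control lysates were stripped of protein with detergent and proteinase K first, so that RNA resisting the nuclease by its own structure can be told from RNA shielded by protein. Each of 6 replicate lists sets a footprint library against the control of its nuclease and number, and the labels do not say that replicates were separate cultures, so spread between lists may be technical. The lists hold site positions (hg19) and scores but no reads, so the depth behind a site is unknown. They name no genes, and markers of the cell line could therefore not be examined.

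Most of the genome is copied into RNA from 1 strand at a given place. Sites on both strands at 1 position need reads placed on both strands there, as where neighbouring genes run into each other or an antisense RNA is made. RNA pairs with such an antisense partner, or with an inverted copy of a repeat such as Alu in its own chain, and paired RNA is cut poorly by ssRNase and readily by dsRNase. Genes and repeats at the positions below were not assigned, because no hg19 annotation or sequence was used here, and no sequence is shown. The treatment of reads that fit several places is not stated, and whether both strands were copied at each position was not tested.

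Facing sites were common in every ssRNase list. Within replicate 1, 15003 of 209581 sites (7.16%) faced a site of the same list, within replicate 2 6733 of 57216 (11.8%), and within replicate 3 14942 of 171795 (8.70%). The mean was 9.21% ± 2.35 (SD, n = 3 lists). The shortest list, replicate 2, had the highest share. Facing was rare with dsRNase, where 56 of 23686, 93 of 28127 and 120 of 21265 sites (0.236%, 0.331% and 0.564%) had a partner in their own list, with a mean of 0.377% ± 0.169 (SD, n = 3 lists). All 3 ssRNase lists thus lay above all 3 dsRNase lists. The members were chosen on the ssRNase lists, so this difference carries no test. The dsRNase sites were also shorter, and longer sites face more often (below). Sites without a partner had median lengths of 33, 33 and 34 nt with dsRNase and 42, 43 and 41 nt with ssRNase. The part of length in the difference was not tested. When every list was reduced to its 21265 best-scoring sites the shares were 8.66%, 10.9% and 9.29% with ssRNase and 0.254%, 0.263% and 0.564% with dsRNase.

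**Figure D1:**
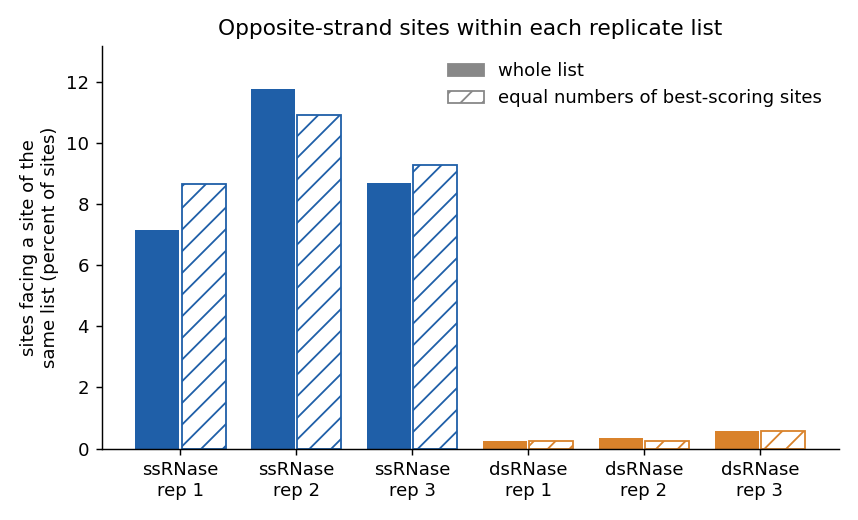
Percent of the sites of each replicate list that overlap an opposite-strand site of the same list by at least 1 nt, one pair of bars per list, for the whole list (filled) and for equal numbers of best-scoring sites (hatched). The ssRNase lists range from 7.16% to 11.8% and the dsRNase lists from 0.236% to 0.564%.

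The 2 strands of a pair were seen in the same list in most cases. In 2949 of 10216 pairs (28.9%) sites faced each other within each of the 3 ssRNase lists, in 3198 (31.3%) within 2 and in 3455 (33.8%) within 1. In the other 614 pairs (6.01%) the strands came together only across lists. Facing also held between lists, since 4.76% to 17.2% of the sites of one ssRNase list had an opposite-strand site in another. Of the sites that faced within one list, 42.8% to 95.2% overlapped sites on both strands in another list. These shares depend on the length of the list searched and were lowest when replicate 2 was searched.

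Facing sites recurred more than other sites, which follows in part from the choice of members and is given as a description. In all, 9635 facing sites (53.1%) joined sites of all 3 ssRNase lists, against 27767 other sites (10.6%). Sites from a single list made up 20.5% of facing and 63.2% of other sites. Read the other way, 2.19% of the merged sites from 1 list faced a partner, 6.51% of those from 2 lists and 25.8% of those from all 3. Both sites of a pair came from all 3 lists in 3417 pairs (33.4%).

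Facing sites were long. Their median length was 72.0 nt, with 25% at or under 50 nt and 25% over 106.0 nt, against a median of 43.0 nt for other sites. A longer site has more room for a partner, and the share of sites that faced rose with length: 1.86% of sites of 1 to 30 nt, 2.63% of those of 31 to 50 nt, 10.1% of those of 51 to 100 nt, 39.9% of those over 100 and up to 200 nt and 57.9% of the 748 longer ones. The authors' score, read here only as a rank inside its own list, was also higher. In replicates 1, 2 and 3 the median facing site stood at percentile 78.4, 68.4 and 77.6 of its list, and the median site without a partner in its list at 48.0, 47.5 and 44.2. Score and length are tied to each other. Among replicate sites of 51 to 100 nt, those joined into facing sites stood at median percentiles of 81.0, 71.6 and 78.7, and those joined into other sites at 66.7, 60.5 and 65.8. At 1 to 30 nt the gap was small or absent, with 21.4 against 21.4, 31.2 against 25.8 and 30.6 against 28.9.

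The stretch covered on both strands had a median length of 52.0 nt and reached 364 nt. It took up most of the shorter site, with a median of 97.9% of it. One site lay inside the other in 2992 pairs (plus site inside, 29.3%) and in 1677 pairs (minus site inside, 16.4%). The sites were staggered with overlapping 3′ ends in 3479 pairs (34.1%) and with overlapping 5′ ends in 2043. Exact mirror images were rare: starts and ends were equal in 25 pairs and within 5 nt in 724 (7.09%). The limit of 1 nt cut through a continuum. There were 92 pairs with an overlap of exactly 1 nt and 94 opposite-strand pairs that abutted without overlap, and the median site lengths were 69.5 and 68.0 nt.

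Each pair joins a plus-strand and a minus-strand site, so the rule itself brings the numbers on the 2 strands close together. Facing sites numbered 9207 on the plus and 8931 on the minus strand. The minus-strand share was 49.2%, against 57.7% of other sites, and nothing is read from that difference. Of the facing sites, 16004 had 1 partner and 2134 had more, up to 6. The surroundings of a pair often leaned to 1 strand. Over windows of 10000 bp, 49.6% of pairs lay in windows whose other sites were on 1 strand only, 35.2% had other sites on both strands and 15.2% had none. Where 1 strand of the window held more bases of other sites (8657 pairs), that strand is called the leading strand. There the site on the leading strand had a median length of 81.0 nt and its partner 71.0 nt. Within a list the site on the leading strand had the higher score in 51.2%, 52.9% and 50.9% of pairs in replicates 1, 2 and 3. The leading strand thus had the higher score about as often as its partner did. By strand the scores differed. In replicates 1, 2 and 3 the plus-strand partners stood at median percentiles of 75.6, 62.9 and 76.99 of their list. The minus-strand partners stood at 83.6, 78.4 and 82.4, so that the minus strand was higher in all 3 lists. Replicate sites joined into other sites stood at 48.3, 41.1 and 49.3 on the plus and 43.8, 49.6 and 44.2 on the minus strand. Among those the minus strand was higher in replicate 2 only.

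Stretches covered on both strands often lay close to each other. They are counted by pair, and 2134 facing sites had more than 1 partner, so some neighbouring stretches share a site. The same distance is not given for other sites. The median distance to the nearest other stretch was 48.0 nt, and 67.3% of stretches had another within 100 nt. Joining stretches no more than 100 nt apart gave 6013 groups, of which 3345 held 1 stretch, 1608 held 2 and 1060 held 3 or more, up to 16. The 2668 groups of at least 2 stretches spanned a median of 206 nt, and the number of groups fell abruptly near 300 nt. Between 281 and 300 nt there were 125 groups, and between 301 and 320 nt there were 17. Other sites of 1 strand, grouped by the same distance, showed no such step, with 752 groups from 281 to 300 nt and 583 from 301 to 320 nt among 35161. The grouping distance was chosen after the spacing was seen.

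**Figure D2:**
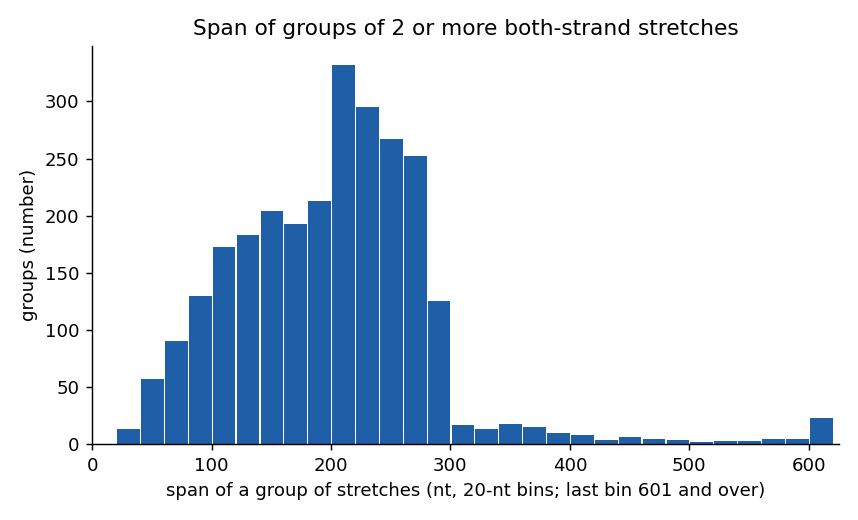
Number of groups of at least 2 both-strand stretches (vertical axis) by the span of the group in nt (horizontal axis, bins of 20 nt, the last bin holding all longer spans). The 4 bins before that of 281 to 300 nt are the highest (332, 295, 267 and 252 groups), and the counts drop from 125 groups in the bin of 281 to 300 nt to 17 in the next.

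Facing sites lay on every chromosome from 1 to 22 and on X, where between 3.97% (chromosome 5) and 10.2% (chromosome 19) of sites faced a partner. Chromosome 14 followed chromosome 19 at 9.52%, and chromosome 9 was next to lowest at 3.99%. Chromosome 19 held 9.10% of facing and 5.51% of other sites, and chromosome 5 held 4.10% and 6.85%. The other 29 facing sites lay on chromosome Y, among 73 sites there (39.7%), and 18109 facing sites were left without them. That share was far above those of the other chromosomes. How reads that fit several places were treated is not stated, and whether these sites come from RNA of chromosome Y was not tested. The sites were spread over 4038 windows of 10000 bp, of 55990 with any ssRNase site, and 1015 windows held 50% of them. Only 297 windows had 10 or more. Windows with a facing site held a median of 7 ssRNase sites and windows without one a median of 3. Of 7866 windows with at least 10 ssRNase sites 19.2% had a facing site, against 5.26% of windows with fewer and 7.21% of all windows.

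The window with the most facing sites was on chromosome 7 from 7120001 to 7130000, where 80 of 98 merged ssRNase sites (81.6%) faced a partner, 39 on the plus and 41 on the minus strand. Replicates 1, 2 and 3 had 49, 18 and 39 sites there on the plus strand and 41, 17 and 46 on the minus strand. Both strands were nearly even in each of these libraries. The window was picked by its facing sites, which pair a plus with a minus site, so this evenness rests at least partly on the rule. The dsRNase lists had 4, 9 and 11 sites there on the plus strand and 11, 9 and 11 on the minus strand. Replicate 1 of dsRNase leaned to the minus strand and the other 2 were even.

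**Figure D3:**
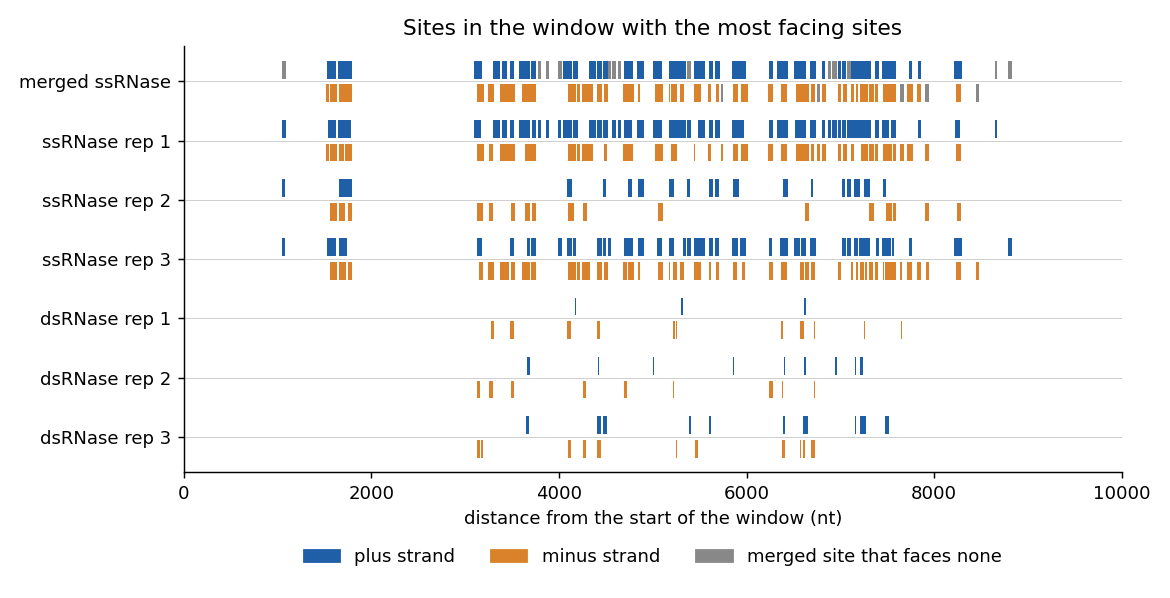
Sites of the merged ssRNase list and of the 6 replicate lists in the window on chromosome 7 with the most facing sites, drawn to scale by distance in nt from the window's start, with plus-strand sites above and minus-strand sites below each line. Merged sites with a partner are coloured and the 18 without one are grey, and dsRNase sites are fewer and shorter.

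The next windows were on chromosome 2 from 202030001 to 202040000 (45 facing of 59 sites), chromosome 7 from 102090001 to 102100000 (43 of 53), chromosome 1 from 204520001 to 204530000 (38 of 51) and chromosome 19 from 46050001 to 46060000 (33 of 47). In the chromosome 2 window the dsRNase lists had 0, 1 and 2 sites on the plus strand and 9, 7 and 9 on the minus strand. The few dsRNase sites there thus lay almost entirely on the minus strand, while ssRNase sites lay on both. The minus strand held 78.9%, 63.6% and 77.5% of all sites of dsRNase replicates 1, 2 and 3. Whether the window departs from that lean was not tested. In the second chromosome 7 window ssRNase replicates 1, 2 and 3 had 22, 14 and 23 plus-strand sites and 20, 12 and 28 minus-strand sites. The dsRNase lists had none on the plus strand there and 1, 0 and 1 on the minus strand. The chromosome 1 window had 1, 2 and 1 dsRNase sites on the plus and 1, 3 and 1 on the minus strand, and the chromosome 19 window had 0, 2 and 1 and none. The other 5 of the leading 10 windows lay on chromosomes 6 (from 43580001 and from 111870001), 2 (from 47130001), 4 (from 13330001) and 10 (from 97630001). They held 25 to 29 facing sites each. Among them the chromosome 4 window stood out by dsRNase sites on both strands, with 5, 15 and 12 on the plus and 15, 11 and 15 on the minus strand.

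The dsRNase lists had no part in choosing the members, and the first question was how often a facing site was protected on its own strand there. In dsRNase replicates 1, 2 and 3, 706 (3.89%), 1075 (5.93%) and 1354 (7.46%) of the 18138 facing sites overlapped a dsRNase site of the same strand, against 6.07%, 7.29% and 5.65% of all ssRNase sites. Among other sites the shares were 6.22%, 7.39% and 5.52%. Facing sites were lower in 2 lists and higher in replicate 3, and the mean difference of -0.61 percentage points (SD 2.26, n = 3 lists) was smaller than its spread (two-sided exact permutation of signs p = 0.75, where 0.25 is the smallest that 3 lists allow). Without dsRNase replicate 1 the difference was 0.242 percentage points. It was 1.35 for minus-strand sites alone and -1.89 for plus-strand sites alone. In the authors' merged dsRNase list the share was 12.5% (95% exact binomial interval 12.0% to 13.01%) of facing and 12.97% (12.8% to 13.1%) of other sites. The intervals cover counting error only.

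That comparison mixed long facing sites with short other sites, and at equal length facing sites had less dsRNase protection on their own strand. Among sites of 51 to 100 nt, 2.88%, 4.41% and 5.82% of facing sites overlapped a site of dsRNase replicates 1, 2 and 3, and 9.97%, 12.0% and 8.76% of other sites. Every list was lower for facing sites, with a mean difference of -5.87 percentage points (SD 2.56, n = 3 lists, two-sided exact permutation p = 0.25). Among sites over 100 and up to 200 nt, the shares were 6.53%, 10.4% and 12.99% for facing and 25.7%, 30.004% and 25.5% for other sites, a difference of -17.1 (SD 4.02, exact permutation p = 0.25). Among longer sites 25.2% ± 6.94 of facing and 59.6% ± 4.96 of other sites had one (SD, n = 3 lists). At 1 to 30 and 31 to 50 nt the differences were -2.41 (SD 0.11) and -1.47 (SD 0.916) percentage points, and again all 3 lists were lower for facing sites. The groups did not overlap in any of the 5 length classes. The p of 0.25 is the smallest possible, so no class could pass 0.05.

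**Figure D4:**
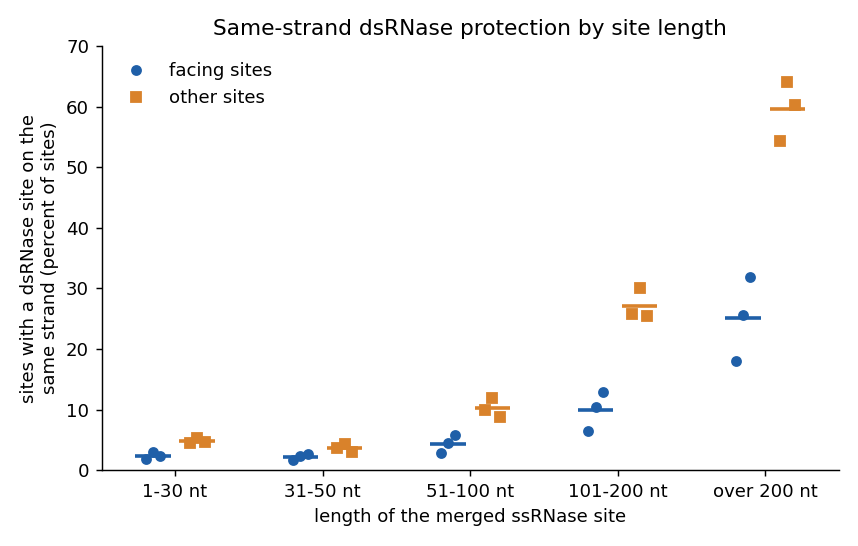
Percent of merged ssRNase sites that overlap a dsRNase site on the same strand (vertical axis) by length class of the ssRNase site (horizontal axis), with 1 point for each of the 3 dsRNase lists and a bar at their mean, for facing and other sites. Facing sites lie lower in every class, for example at 9.96% against 27.1% on average for sites over 100 and up to 200 nt.

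The lower dsRNase protection was also seen beside comparable sites. Among sites joining all 3 ssRNase lists, 8.71% of facing and 18.0% of other sites overlapped a same-strand dsRNase site, a difference of -9.30 percentage points (SD 3.804, n = 3 lists, exact permutation p = 0.25). Within windows that held a facing site, for sites of 51 to 100 nt from all 3 lists, the shares were 5.81% and 18.3% (difference -12.5, SD 1.27, n = 3 lists, exact permutation p = 0.25). On the minus strand, where the pooled difference was above 0, facing sites were lower in each length class on average, at 14.4% against 31.6% for sites over 100 and up to 200 nt. These comparisons were chosen after the first results were seen.

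The opposite strand of a facing site is its partner's own strand, so its shares were close to those on the same strand. Of the facing sites 664 (3.66%), 1001 (5.52%) and 1323 (7.29%) had a dsRNase site on the opposite strand in replicates 1, 2 and 3, against 0.254%, 0.383% and 0.495% of all sites. Other sites had one in 0.0190%, 0.0286% and 0.0251%. The mean difference was 5.47 percentage points (SD 1.81, n = 3 lists, higher in all 3, exact permutation p = 0.25). Other sites lack an ssRNase site on the opposite strand by definition, and the nucleases share many positions. The direction and the size of this difference, and of the both-strand difference below, thus rest at least partly on the rule. The test cannot set the part of the rule aside, so nothing is concluded from the sign. In the merged dsRNase list 12.0% of facing and 0.823% of all sites had a site on the opposite strand, and 1.57% and 0.111% had sites on both strands. The dsRNase sites of one list lay on both strands at 68, 97 and 111 facing sites (0.375%, 0.535% and 0.612%), against 0.0253%, 0.0381% and 0.0428% of all sites and 3, 10 and 9 other sites. The mean difference was 0.50 percentage points (SD 0.12, n = 3 lists, exact permutation p = 0.25). When dsRNase sites had to cover at least 50% of the ssRNase site, the opposite-strand difference was 2.03 percentage points (SD 0.827), and the both-strand difference was 0.0193, smaller than its SD of 0.0219 (n = 3 lists, exact permutation p = 0.5). For sites of 51 to 100 nt from all 3 lists in windows with a facing site, the both-strand shares were 0.271% and 0.141%, a difference of 0.13 (SD 0.111), while the opposite-strand difference was 5.32.

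Counted by pair, dsRNase sites lay on a minority of pairs and mostly on the minus strand. A dsRNase site lay on at least 1 strand of 8.65%, 12.8% and 16.1% of the 10216 pairs in replicates 1, 2 and 3. Of all ssRNase sites, 6.07%, 7.29% and 5.65% had one on the same strand, and a pair has 2 sites to overlap. The minus strand alone had one in 746, 931 and 1348 pairs, the plus strand alone in 88, 296 and 222 and both strands in 50, 79 and 71. Where so few pairs have a dsRNase site, most of those that do have it on 1 strand, here 94.3%, 94.0% and 95.7%, and nothing is read from that share. Pairs with a plus-strand dsRNase site (138, 375 and 293) had a minus-strand one in 36.2%, 21.1% and 24.2%, against 7.40%, 9.46% and 13.6% of pairs without a plus-strand site. A minus-strand dsRNase site was thus more frequent in all 3 lists where the plus strand had one too. This is given as a description, since pairs differ in length and some share a site. The minus strand thus held 89.4%, 75.9% and 85.9% of the pairs with 1 strand, and it held 78.9%, 63.6% and 77.5% of all sites of these lists. In 76.1% ± 0.723 of the pairs with 1 strand (SD, n = 3 lists) the dsRNase site was on the longer ssRNase site. A longer site offers more bases to overlap. The plus site also lay inside the minus site in 29.3% of pairs, and the reverse held in 16.4%. The parts of length and strand in this share were not tested. The dsRNase site was on the leading strand of the window in 58.4% ± 2.92. Counted only inside the stretch covered on both strands, 643, 974 and 1284 stretches had a dsRNase site, of which 34, 43 and 55 had it on both strands.

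**Figure D5:**
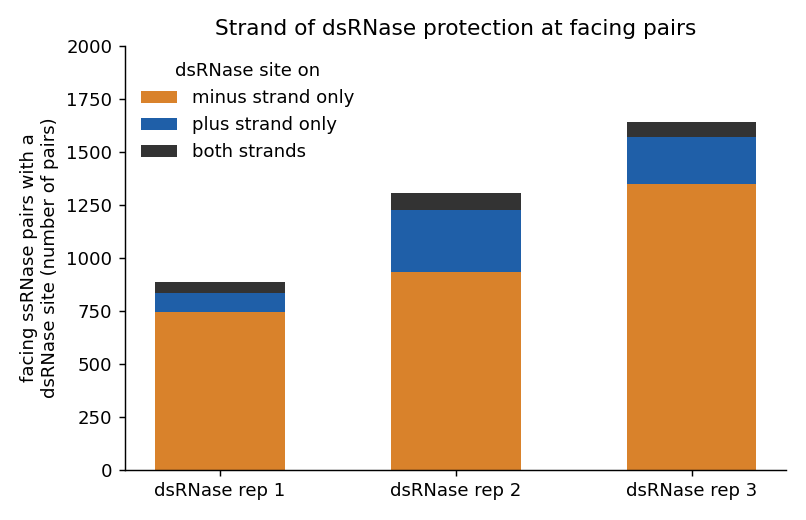
Number of facing ssRNase pairs (vertical axis) with a site of each dsRNase replicate list (horizontal axis) on the minus strand only, on the plus strand only or on both strands. Both strands make up 50, 79 and 71 pairs, and the minus strand alone 746, 931 and 1348.

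Pairs seen on both strands in more ssRNase lists had dsRNase sites more often. A site of at least 1 dsRNase list lay on 15.5% of the 614 pairs that faced within no single ssRNase list, on 21.0% and 25.1% of those that faced within 1 and 2 lists, and on 35.1% of those that faced within 3. These pairs were also longer, with a median stretch of 81.0 nt within 3 lists and 25.0 nt within none, and the part of length in this order was not tested. No dsRNase list had a site on either strand of 7554 pairs (73.9%). Shares by pair are not comparable with shares by single site, since a pair has 2 sites and facing sites are longer. By single site, 12.5% of facing and 12.97% of other sites had a merged dsRNase site on the same strand. At equal length facing sites were lower in every class, as given above. Of all ssRNase sites, 12.9% had a merged dsRNase site on the same strand and 0.823% on the opposite strand.

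Where dsRNase sites did face each other, they lay mostly at ssRNase facing sites. Of the facing dsRNase sites, 52 of 56, 72 of 93 and 99 of 120 (92.9%, 77.4% and 82.5%) overlapped a facing ssRNase site on either strand, a place that held 3.36%, 4.16% and 7.02% of all dsRNase sites. Among dsRNase sites at facing ssRNase sites, 6.53%, 6.15% and 6.63% faced a site of their own list, and among those at other ssRNase sites 0.0238%, 0.0841% and 0.128%. The difference was 6.36 percentage points (SD 0.255, n = 3 lists, higher in all 3, two-sided exact permutation p = 0.25). It was 3.61 (SD 0.346) when overlaps had to cover at least 50% of a site, and 1.77 (SD 0.814, 3.41% against 1.64%) at sites of 51 to 100 nt from all 3 lists in windows with a facing site. Over all lengths the 3 dsRNase lists were close to each other in the share at facing sites, although they differed in length and in strand. Within length classes they were less close. At facing sites of 31 to 50 nt the shares were 5.06%, 0% and 4.85% in replicates 1, 2 and 3. The nucleases share many positions, and other ssRNase sites lack an opposite-strand site by definition. A dsRNase site that touched both kinds was counted at facing sites. The direction of this difference thus rests at least partly on the rule, and nothing is concluded from its sign. Over the 4 comparisons with the dsRNase lists (same strand, opposite strand, both strands and facing of dsRNase sites) the Benjamini-Hochberg adjusted exact permutation p was 0.75 for the first and 0.333 for the other 3.

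Only 12 pairs had dsRNase sites on both strands inside the stretch in all 3 dsRNase lists, 17 in 2 lists and 62 in 1. The longest of them was on chromosome 4, where both strands were covered from 13336041 to 13336379 (339 nt). Its plus strand held 319, 209 and 285 protected bases in ssRNase replicates 1, 2 and 3, and its minus strand 335, 223 and 323. With dsRNase the plus strand held 33, 26 and 74 bases and the minus strand 33, 23 and 79. Both strands were matched within each library, and ssRNase covered most of the stretch while dsRNase covered short parts of it. The same plus-strand site also faced a minus-strand site from 13335844 to 13336033 (190 nt), with 42, 57 and 102 dsRNase bases on the plus and 81, 54 and 38 on the minus strand.

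A stretch on chromosome 12 from 21951311 to 21951601 (291 nt) came next. It held 291, 172 and 251 bases on the plus strand and 273, 204 and 277 on the minus strand with ssRNase. With dsRNase it held 46, 37 and 49 bases on the plus strand and 135, 134 and 129 on the minus strand, so that the minus strand was the higher in each dsRNase list. A neighbouring stretch from 21951718 to 21951850 leaned the other way, with 66, 84 and 51 plus-strand and 42, 42 and 37 minus-strand dsRNase bases. The other pairs of this kind among the 10 named by rule lay on chromosome 2 from 148689381 to 148689582, chromosome 16 from 13333547 to 13333722, chromosome 15 from 21938348 to 21938522, chromosome 20 from 5457198 to 5457336, chromosome 1 from 145514420 to 145514510 and chromosome 13 from 19430275 to 19430328. On chromosome 16 the dsRNase lists held 45, 27 and 85 plus-strand and 71, 44 and 81 minus-strand bases. On chromosome 1 they held 14, 39 and 41 plus-strand and 5, 1 and 43 minus-strand bases of the 91 nt, so that the minus strand had the fewer bases in the first 2 lists. Whether these places share sequence with each other was not tested.

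The longest stretch of all was on chromosome 2 from 148689593 to 148689956 (364 nt), next to one of those just named. With ssRNase it held 363, 115 and 252 bases on the plus strand and 364, 269 and 284 on the minus strand. Replicate 2 was the lowest on both strands. With dsRNase the minus strand held 174, 131 and 200 bases and the plus strand 0, 0 and 15, which is protection on 1 strand in the first 2 dsRNase lists and nearly so in the third. A stretch of 289 nt on chromosome 12 from 69747280 to 69747568 held 289, 142 and 245 plus-strand and 280, 278 and 259 minus-strand bases with ssRNase. It had 43 minus-strand bases in dsRNase replicate 2 and no other dsRNase site. A stretch of 284 nt on chromosome 19 from 54865359 to 54865642 held 273, 85 and 273 plus-strand and 266, 236 and 284 minus-strand bases with ssRNase and no dsRNase site.

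The 5 longest pairs with equal ends were protected on both strands in all 3 ssRNase lists, and 4 of them had no dsRNase site in any list, as was the case for 73.9% of all pairs. The longest, on chromosome 6 from 74535554 to 74535691 (138 nt), held 111, 111 and 129 bases on the plus and 129, 134 and 136 on the minus strand in ssRNase replicates 1, 2 and 3. A pair of 118 nt on chromosome 14 from 93207407 to 93207524 held 118, 114 and 103 plus-strand and 118, 118 and 118 minus-strand bases. Others lay on chromosome 6 from 21231836 to 21231962 (127 nt) and chromosome 1 from 156344398 to 156344520 (123 nt). The last of the 5, and the one with a dsRNase site, on chromosome 7 from 101267200 to 101267301 (102 nt), had 51 minus-strand bases in dsRNase replicate 2 alone. Equal ends of merged sites need not be equal ends in each replicate list.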

How the data were processed

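Adapters were trimmed with cutadapt 0.9.5 and reads handled with TopHat2 2.0.9 on build hg19, per the submitters' processing notes. CSAR site calls at a 5% false discovery rate are stated in the names of the deposited lists. How reads that fit several places were treated is not stated in the labels. Each site carries a score deposited by the authors on an unstated scale, and it served only for ranks within a list. The merged lists, joined by the authors, name the replicate sites behind each merged site. Coordinates count from 1 and include both ends.

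Members, lists and comparisons were chosen with earlier results of these data known. Shares in the 3 dsRNase lists were compared by a two-sided exact permutation of signs over lists. Named places were the 5 longest stretches, the 10 windows of 10000 bp with most facing sites, the first 10 pairs from all 3 ssRNase lists ranked by dsRNase lists with both strands and then length, and the 5 longest pairs with equal ends. Alternatives were stricter overlaps, site subsets, length classes and left-out lists. Overlap code was tested on simulated data (0 of 240000 comparisons differed from a base-by-base count). Steps ran in Python 3.11.15 with pandas 2.3.3 and numpy 2.4.6, figures in matplotlib 3.10.9, and intervals came from scipy 1.17.1. The reference at hand is of another build and was not used. The merged list over both nucleases was not used.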

Additional observations from a re-analysis of the deposited data

Results flagged for a closer look

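The mitochondrial genome was left out of all comparisons above. The merged ssRNase list held 136 sites on it, of which 21 (15.4%) faced an opposite-strand site, against 2 of 191 (1.05%) on the contig Un_gl000220. Of the mitochondrial sites 107 were on the minus strand. The number of facing sites there is given because it lies in data that no comparison used.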

How the results depend on the processing

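The number of facing sites stayed within 1.5 times under all 9 alternatives run, from 12352 (sites of at least 2 ssRNase lists) to 18109, and the shares in single lists moved by less than 1 SD with equal numbers of sites. Alternatives by window, strand, strand and length class, exact number of ssRNase lists or replicate block (below) were chosen after seeing the data. Many alternatives share sites, so their number does not count independent checks. Of 35 alternatives, the same-strand difference was below 0 in 33 and above 0 in 2. The 2 were 1.349 percentage points for minus-strand sites alone, an alternative chosen after seeing the data, and 0.2421 without dsRNase replicate 1. The range was -1.893 to 0.2421 without 1 dsRNase list and -1.703 to -0.6486 without 1 ssRNase list. The opposite-strand difference was above 0 in all 35 but ranged from 1.678 (minus-strand sites of 31 to 50 nt) to 25.23 (plus-strand sites over 200 nt), and was 3.214 with the better-scoring 50% of each list. The both-strand difference was above 0 in all 34 that gave a direction but ranged from 0.01933 (dsRNase overlap of at least 50% of the site) to 8.333 (plus-strand sites over 200 nt), with 0.06231 for sites of 1 ssRNase list. Their sizes thus depend on overlap, length and support, and their signs rest at least partly on the rule that chose the members. For minus-strand sites of 1 to 30 nt both groups had no both-strand overlap, so no value is given. The difference in the facing share of dsRNase sites was above 0 in 34 of 35, up to 30.3 for plus-strand sites over 200 nt. It was -0.03679 for minus-strand sites of 1 to 30 nt, and the cause was not tested. Its sign also rests at least partly on the rule. No p could pass 0.05, so these p-values say nothing of stability. Each comparison is paired by dsRNase list. With the replicate number as a block (replicate block), taking sites that faced within each ssRNase list against the dsRNase list of the same number, the differences were -2.834 (same strand), 6.177 (opposite strand), 0.6352 (both strands) and 8.008 (facing share). The labels do not say that a number marks shared material, and this alternative was chosen after seeing the data. Depth is unknown, so places without a site may be short of reads.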
